A study of Mus musculus with 4 samples.

Results

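Pericytes are the mural cells that lie on capillaries inside the basement membrane of the vessel. They take up platelet-derived growth factor from the endothelium through Pdgfrb and Notch signals through Notch3, and they regulate vessel stability and local blood flow. Smooth muscle cells of arterioles and larger vessels belong to the same lineage but carry a full contractile apparatus, with Acta2 (smooth muscle alpha-actin) as its best known gene. Here the cells with pericyte transcripts and little Acta2 were described in leg muscles of fetal mice at day 18.5 of gestation.

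Members were chosen by the raw counts of 9 genes in each cell. A cell was taken as a pericyte if it had at least 2 unique molecular identifiers (UMIs, each standing for 1 captured transcript) of Rgs5, at least 1 UMI of Higd1b, Cox4i2, Kcnj8 or Abcc9, fewer than 5 UMIs of Acta2, and 0 UMIs of Pdgfra, Cdh5 and Myog. This rule found 616 pericytes among 36969 cells that passed the study's limits on genes, UMIs and mitochondrial share, from 41741 deposited barcodes. The study compared wild-type (WT) fetuses with fetuses that lacked the long non-coding RNA SYISL by knockout (KO), in 2 libraries per genotype. Both genotypes were littermates from heterozygous parents, and each fetus was genotyped from its tail. The libraries of a genotype are labelled as replicates. The strain, the sex and the number of fetuses per library were not given in the sources used here. Leg muscle was dissociated with trypsin, and 3′ ends of transcripts were counted.

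The rule gave 153 pericytes in WT replicate 1, 137 in WT replicate 2, 165 in KO replicate 1 and 161 in KO replicate 2. Their median was 9397 and 10288 UMIs per cell in WT against 7946 and 8461 in KO, so it was higher in both WT libraries. No feature was named SYISL, and the knockout was not checked at its target. Its host gene Synpo2, a gene of actin-binding synaptopodin proteins, stood at 19.8 and 13.3 CPM (UMIs of the gene per 1e+06 UMIs of the pericytes in that library) in WT pericytes and at 20.1 and 19.7 CPM in KO pericytes. KO replicate 2 stood apart in sex-linked transcripts. Xist, the RNA that coats the inactive X chromosome, was at 0 UMIs in the other 3 libraries and at 959 CPM in KO replicate 2, whereas the Y-linked Ddx3y was at 2.63 CPM there and between 93.9 and 108 CPM elsewhere. Barcodes were shared little between libraries: 4 pericyte barcodes also occurred in a different library, and 0 were pericytes in both.

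Kcnj8 and Abcc9, which helped to choose these cells, encode the pore and the regulatory subunit of an ATP-sensitive potassium channel. Their genes are neighbours on chromosome 6 (mm10), on the minus strand, with promoter windows 130660 bases apart from start to start. The RefSeq windows of these 2 genes (GRCm38.p6, the same build) are shown as the regulatory sequence of a pair of marker genes that the rule used. Each holds the letters TGGGAA, the core of the motif of RBPJ, the DNA-binding partner of Notch receptors. Each window runs from 250 bases before to 50 bases after the transcription start, at chr6:142571565-142571864 for Kcnj8 and chr6:142702225-142702524 for Abcc9, and the capitals mark the motif.
Kcnj8: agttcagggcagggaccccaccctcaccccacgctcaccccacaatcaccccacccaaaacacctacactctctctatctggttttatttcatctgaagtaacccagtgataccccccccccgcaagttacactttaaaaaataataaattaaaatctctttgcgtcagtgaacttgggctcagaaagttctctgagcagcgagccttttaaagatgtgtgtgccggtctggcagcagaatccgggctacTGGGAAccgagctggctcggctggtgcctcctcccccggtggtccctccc
Abcc9: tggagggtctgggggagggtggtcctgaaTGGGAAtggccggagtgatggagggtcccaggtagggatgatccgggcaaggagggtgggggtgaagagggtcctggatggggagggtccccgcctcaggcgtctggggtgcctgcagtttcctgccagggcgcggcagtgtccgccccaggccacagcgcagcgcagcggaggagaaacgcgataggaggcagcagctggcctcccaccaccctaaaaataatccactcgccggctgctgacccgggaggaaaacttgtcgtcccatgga
Both strands were searched (TGGGAA and TTCCCA), and 1 match was found in each window. The letters occurred in 25.6% of all 32851 windows of the table, so a match is common. They were absent from the windows of Rgs5 and Notch3. Higd1b, Cox4i2, Ndufa4l2 and Heyl had no window.

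The label was checked on genes that the rule did not use, as a description, since every gene of cells chosen by their counts shares those counts. Pdgfrb, the receptor that recruits pericytes to vessels, had a level of 563 and 496 CPM in WT and of 482 and 471 CPM in KO pericytes. It was 12.4 to 13.0 times higher than in all other kept cells of the same library (ratio of CPM, pseudocount 1 CPM). Vtn, which encodes the matrix protein vitronectin, had 176, 152, 180 and 133 CPM in the order WT 1, WT 2, KO 1 and KO 2, which is the order used for all values below. Markers of other cells were present at varied levels. The 10 fibroblast markers, with Pdgfra at 0 by the rule, summed to 1430 to 3549 CPM in pericytes, to 2529 to 2688 CPM in Acta2-high mural cells and to 18269 to 20442 CPM in all other kept cells. Both KO libraries of pericytes lay above the mural range. Summed over 10 endothelial markers the level was 235 to 327 CPM, against 402 to 540.5 CPM in all other kept cells, with Cdh5 at 0 by the rule and Pecam1 between 5.27 and 13.99 CPM, against 1226 CPM of Pecam1 in 1267 endothelial cells chosen by at least 2 UMIs of Cdh5, at least 1 of Pecam1 and fewer than 2 of Rgs5. The 8 smooth muscle markers summed to 110 to 174 CPM in pericytes and to 18485 to 19461 CPM in 730 Acta2-high mural cells (at least 5 UMIs of Acta2 and 1 of Myh11, with Pdgfra, Cdh5 and Myog at 0). Since a 3′ assay was not scaled by length here, levels are compared between cells and not between genes.

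**Figure D1:**
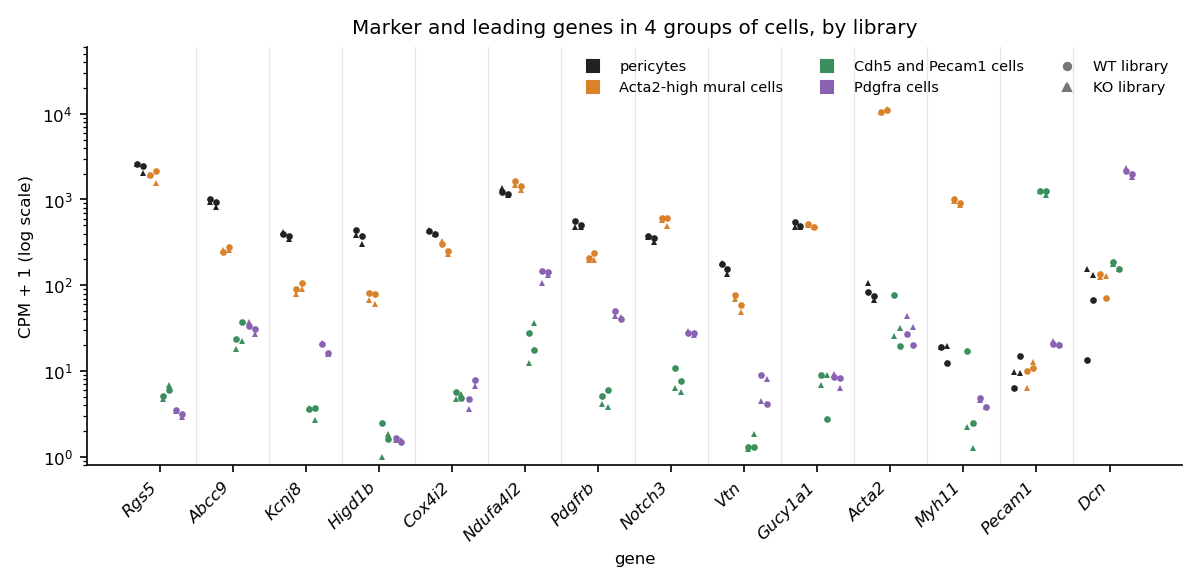
Levels of 14 genes in 4 groups of cells, as CPM + 1 on a log axis, with 1 point per library (circles WT, triangles KO). Pericytes were chosen by Rgs5, Abcc9, Kcnj8, Higd1b, Cox4i2 and Acta2, and they also held Pdgfrb at 471 to 563 CPM and Vtn at 133 to 180 CPM, whereas Myh11 and Pecam1 stayed low.

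Among the markers that chose the cells, Rgs5, a regulator of G-protein signalling, had 2624, 2468, 2597 and 2057 CPM. A pericyte held a median of 21 Rgs5 UMIs, with a range of 2 to 94. Abcc9 had a median of 8 UMIs per cell, and 97.9% of pericytes had at least 1. All 4 of Higd1b, Cox4i2, Kcnj8 and Abcc9 were seen in 446 pericytes (72.4%), 3 of them in 109 cells, 2 in 41 and 1 in 20. Few cells thus rested on a single marker beside Rgs5. Acta2 was at 0 UMIs in 371 pericytes (60.2%) and at 4 UMIs in 23.

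Cells near the limits differed by side. The 16 pericytes with 2 or 3 Rgs5 UMIs, just inside the limit, had 6677 CPM of the fibroblast collagen Col1a1 and 273 CPM of Pdgfrb, and the 40 cells with 1 Rgs5 UMI, just outside, had 7499.7 and 56.0 CPM. These 16 cells were thus rich in fibroblast transcripts. At the Acta2 limit, the 74 pericytes with 3 or 4 Acta2 UMIs had 529 CPM of Pdgfrb and 324 CPM of Higd1b, and the 130 cells with 5 to 9 Acta2 UMIs that met all other criteria had 436 and 289 CPM. Cells just outside the Acta2 limit therefore held pericyte transcripts too, and 601 of the 730 Acta2-high mural cells met the Rgs5 and marker criteria.

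The share of pericytes among kept cells was compared between the genotypes over libraries. It was 1.80% (exact Clopper-Pearson 95% interval 1.53 to 2.10%) and 1.68% (1.41 to 1.98%) in WT, and 1.68% (1.44 to 1.96%) and 1.54% (1.31 to 1.79%) in KO. The intervals cover counting error only. The mean was 1.74% ± 0.0858 (SD, n = 2) in WT and 1.61% ± 0.100 (SD, n = 2) in KO, and the difference of -0.126 percentage points had a two-sided p of 0.667 in an exact permutation test (6 arrangements), whose smallest possible p is 0.333. As a share of pericytes and Acta2-high mural cells together, pericytes made up 42.6 and 47.2% in WT and 44.2 and 49.7% in KO, so on this denominator the difference had the opposite sign (2.03 percentage points, exact permutation p = 0.667).

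The genes with the highest ratio over all other kept cells, beside the rule genes, included genes of vascular tone. These were picked for this ratio and are a description with no test. Htr7, a serotonin receptor that raises cyclic AMP, had 94.2, 101, 89.7 and 63.1 CPM, against a mean of 10.4 CPM in Acta2-high mural cells. Gucy1a1, the alpha subunit of the nitric oxide receptor guanylate cyclase, had 544, 496, 476 and 471 CPM and did not separate pericytes from Acta2-high mural cells (ratio 0.937 to 1.04). The pericyte and mural levels of its partner Gucy1b1 were also close, at a mean of 319 and 288 CPM. Prkg1, the kinase activated by cyclic GMP, had a mean of 2067 CPM in pericytes and 2061 CPM in Acta2-high mural cells, against 271 CPM in other kept cells. The guanylate cyclase and its kinase were thus shared by both mural groups, and Htr7 was higher in pericytes in all 4 libraries.

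Genes of other kinds with a high ratio over all other kept cells made up a second group. Of these, Phox2a, Cpa1 and Calb2 were also among the 15 genes most in favour of pericytes against Acta2-high mural cells. Lin7a and Rasgrp2 were not. Phox2a, a homeobox factor known from autonomic neurons, had 119, 118, 122 and 140 CPM, 34.9 to 51.5 times the level of other kept cells. Cpa1, a carboxypeptidase best known from the pancreas, had 70.5, 88.6, 86.9 and 71.7 CPM, and Calb2, the calcium-binding protein calretinin, had 57.9 to 65.9 CPM. Both were below 1 CPM in the mean of 13490 cells chosen by at least 2 UMIs of Pdgfra (0.298 and 0.183 CPM). The scaffold gene Lin7a had a mean of 408 ± 23.7 CPM (SD, n = 4) against 18.3 CPM in other kept cells. Rasgrp2, an exchange factor for Rap1, had 369 ± 4.29 CPM (SD, n = 4), the smallest spread of these genes relative to its level. WT and KO libraries overlapped for Cpa1, Calb2 and Rasgrp2 and did not for Phox2a (log2 fold change of KO over WT 0.16) and Lin7a (-0.08), and none was called between genotypes.

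Set against Acta2-high mural cells, the genes most in favour of pericytes were of varied function. Nostrin, a protein that binds endothelial nitric oxide synthase, had 88.9, 105, 96.9 and 90.1 CPM, 8.29 to 17.9 times the mural level. Plat, the tissue plasminogen activator, had 213, 179, 187 and 219 CPM and a ratio of 7.39 to 16.6. Cygb, the globin cytoglobin, had 266, 264, 286 and 268 CPM and a ratio of 4.94 to 8.004. Steap4, a metalloreductase, and Slc12a2, a sodium, potassium and chloride cotransporter, were both at least 4.28 times higher in pericytes in each library. These genes separated the groups in every library, although Plat and Slc12a2 were not restricted to them, at 46.0 and 71.0 CPM in other kept cells.

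In the opposite direction the contractile genes were nearly absent from pericytes. Tagln (transgelin, an actin-binding protein of smooth muscle) had 22.4, 11.3, 38.0 and 17.8 CPM in pericytes and a mean of 6105 CPM in Acta2-high mural cells. Cnn1 (calponin) had 1.32, 0, 0 and 0.657 CPM against 201 CPM, and Actg2 (smooth muscle gamma-actin) had 0 to 2.00 CPM against 574 CPM. Eln, which encodes elastin of the arterial wall, had 15.8, 27.3, 41.6 and 55.9 CPM against 1791 CPM. Not all contractile genes followed this pattern. Cald1 (caldesmon), which restrains myosin on actin, had a mean of 1468 CPM in pericytes and 2729 CPM in Acta2-high mural cells, and Tpm4, a tropomyosin, had 780 and 687 CPM.

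Within the pericytes, the contractile genes stayed far below the level of Acta2-high mural cells whether or not an Acta2 UMI was seen. With all libraries pooled, Tagln was at 8.96 CPM in the 371 pericytes with 0 Acta2 UMIs, at 40.5 CPM in the 245 pericytes with 1 to 4, and at 6132 CPM in Acta2-high mural cells. Myh11, the smooth muscle myosin heavy chain, was at 14.2, 19.4 and 938 CPM in these groups. Other contractile genes were present in every group. Myl9, a myosin light chain, was at 350.2, 363 and 1852 CPM and Mylk, its kinase, at 201, 212 and 823 CPM. The pericyte genes ran the other way: Higd1b was at 396, 338 and 71.9 CPM and Vtn at 168, 148 and 63.1 CPM. Higd1b helped to choose the pericytes and Acta2 split the groups, so these values are a description. Notch3 and Ndufa4l2, which are often listed with pericytes, were not higher in pericytes than in Acta2-high mural cells: Notch3 had a mean of 353 against 570 CPM, and Ndufa4l2 of 1214 against 1458 CPM.

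**Figure D2:**
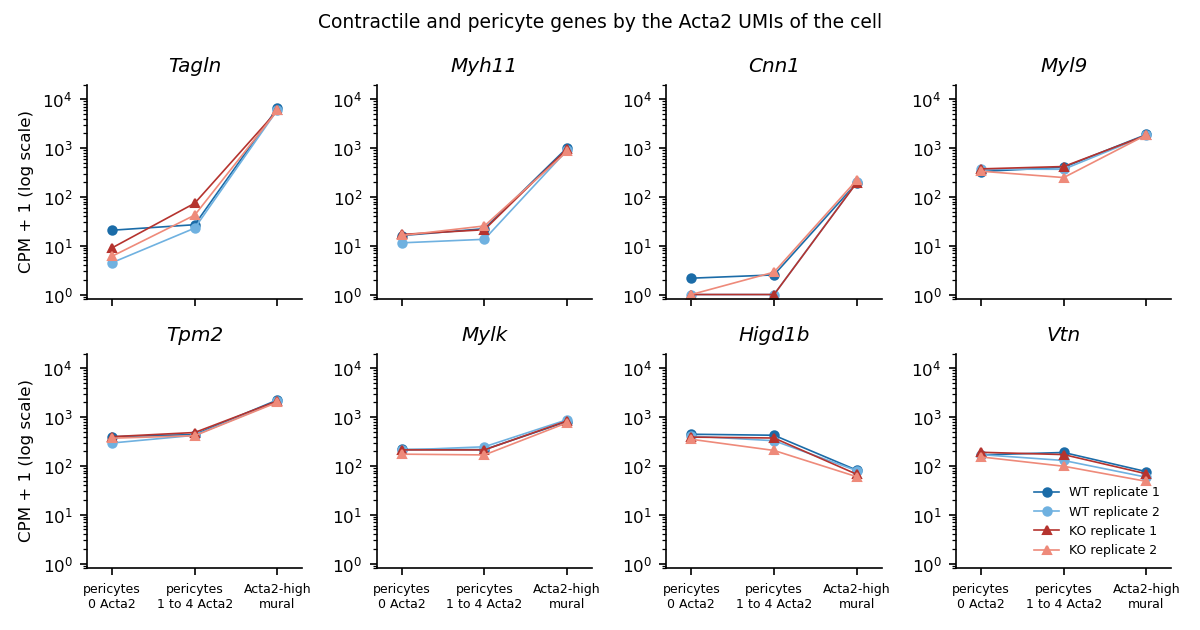
Levels of 8 genes (CPM + 1, log axis) in pericytes with 0 Acta2 UMIs, pericytes with 1 to 4 Acta2 UMIs, and Acta2-high mural cells, with 1 line per library. Tagln, Myh11 and Cnn1 were far higher in Acta2-high mural cells than in either group of pericytes, Myl9, Tpm2 and Mylk were present throughout, and Higd1b and Vtn were lower in Acta2-high mural cells in all 4 libraries.

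Paralogs of mitochondrial proteins linked to the respiratory chain were compared, of which the level of Cox4i2 and Higd1b is fixed in part by the rule. Cox4i2, a rule gene, had 423, 392, 439 and 395 CPM against 17.1 CPM in other kept cells, and Higd1b, also a rule gene, had 436, 373, 380.5 and 299.8 CPM against 5.19 CPM. Ndufa4l2, which the rule did not use, had a mean of 1214 ± 95.7 CPM (SD, n = 4), 5.94 to 9.40 times the level of other kept cells, and was higher still in Acta2-high mural cells (1458 CPM). The common paralog Ndufa4 was low in the same cells, with 147, 94.6, 154 and 133 CPM against 534 CPM in other kept cells. Higd1a was also lower, at 75.3 against 122 CPM in the mean, whereas Cox4i1 was not lower, at 981 against 690 CPM. Reads of near-identical paralogs can be shared, and how the counting treated them was not given in the sources used here.

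Genes of the basement membrane and of matrix adhesion were abundant. Col4a1, a chain of basement membrane collagen, had 1770, 1654, 1712 and 1472 CPM, 2.96 to 3.38 times the level of other kept cells, although the endothelial cells had more (2425 CPM). Timp3, an inhibitor of matrix proteases, had a mean of 718 CPM against 260 CPM in Acta2-high mural cells. Itga1, the integrin subunit that binds collagen IV, had 727, 777, 687 and 784 CPM, 8.06 to 11.4 times the level of other kept cells. Among the receptors for signals from the endothelium, the endothelin receptor Ednra had 138, 140, 126 and 94.7 CPM and the sphingosine-1-phosphate receptor S1pr3 had 145, 148, 123 and 120 CPM. Heyl, a Notch target, had 101, 115, 106 and 105 CPM, against 13.5 CPM in other kept cells. The ligand gene Pdgfb was at 0.657 to 2.87 CPM in pericytes and at 187 CPM in the endothelial cells.

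Cell cycle transcripts were present in every library. Summed over the 34 genes of the cell cycle list, the level was 3839 and 4009 CPM in WT and 3300.2 and 4572 CPM in KO, so the KO libraries lay on either side of the WT libraries. After each pericyte was thinned to 5000 UMIs, 13.7, 17.6, 14.2 and 20.5% of the pericytes deep enough (146, 131, 148 and 146 cells) held UMIs of both Mki67 and Top2a, and without thinning the shares were 17.6, 23.4, 15.8 and 24.8%. In the endothelial cells the share was 20.2 to 25.3% after thinning.

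For the effect of SYISL loss, UMIs were summed per library over the pericytes and compared by edgeR's quasi-likelihood test. Of 9932 genes tested, 1 was called at an adjusted p under 0.05 (0.0101% for genes higher in KO), and 0 were called lower. At an unadjusted p under 0.05, 225 genes were higher (2.27%) and 197 were lower (1.98%). KO and WT libraries did not overlap, with KO above, for 1345 genes (13.5%) and with KO below for 1813 (18.3%), and the median log2 fold change of all genes was 0.00. Without 1 library the remaining 3 gave 49 calls (without WT replicate 1), 70 (without WT replicate 2), 91 (without KO replicate 1) and 57 (without KO replicate 2), fits in which the lone library is assumed to vary like the pair of the other genotype.

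**Figure D3:**
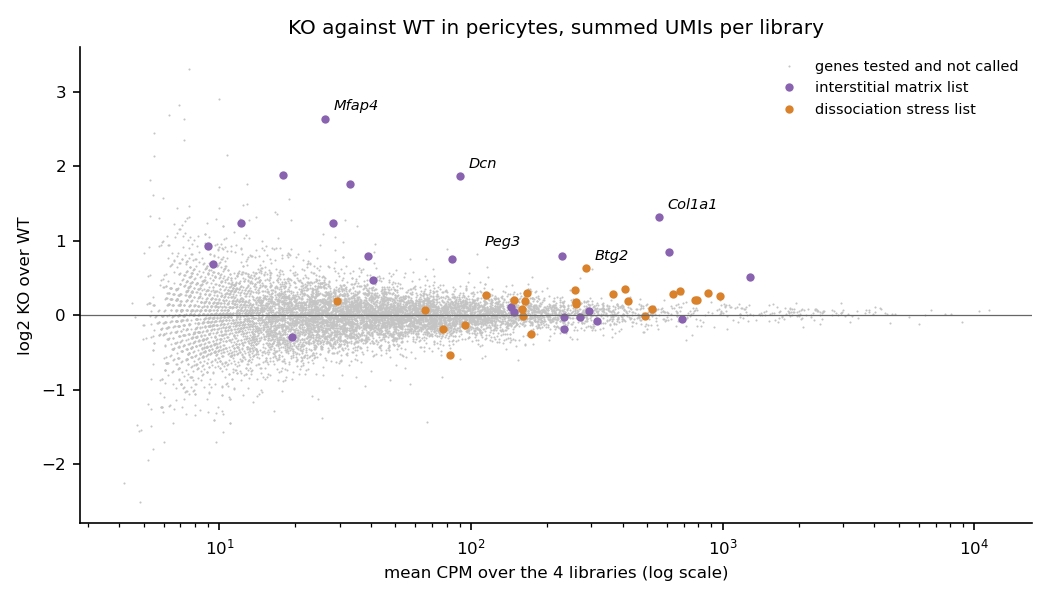
Log2 fold change of KO over WT against the mean level in pericytes (CPM, log axis), with 1 point for each tested gene that was not called. Most genes of the interstitial matrix list (purple) lay above 0, with Mfap4 at 2.64 and Dcn at 1.87.

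**Figure D4:**
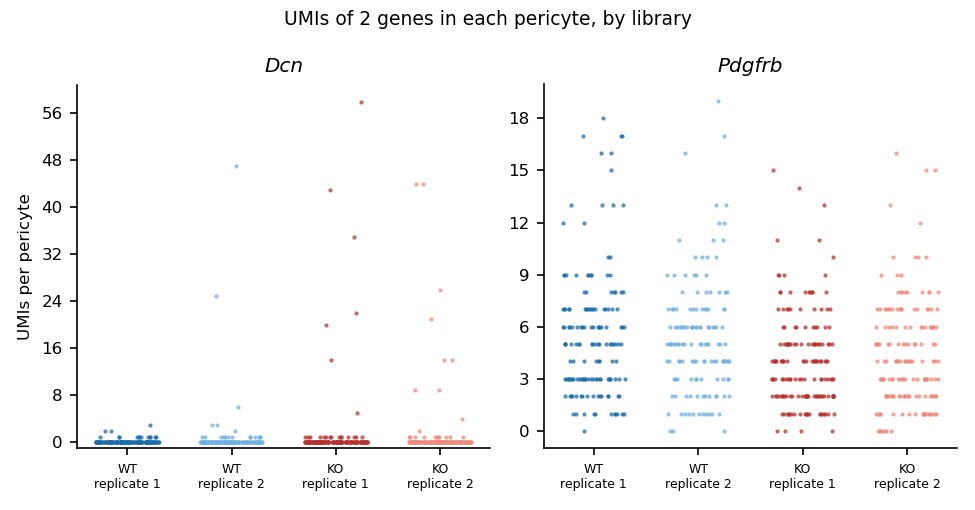
UMIs of Dcn and Pdgfrb in each of the 616 pericytes, by library, with 1 point per cell. Dcn was concentrated in few cells, with highest cells of 3, 47, 58 and 44 UMIs, whereas Pdgfrb was spread over most cells of every library.

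Genes of fibrous connective tissue were frequent among the low p-values without passing the adjusted threshold. Of 24 genes of the interstitial matrix list that were tested, 13 were higher in KO at an unadjusted p under 0.05 and 0 lower, against 2.27% and 1.98% of all genes. The median over the list was 0.72 (log2 fold change), against 0.00 over all genes. Dcn, which encodes the proteoglycan decorin, had 12.5 and 66.0 CPM in WT and 152 and 130 CPM in KO (log2 fold change 1.87, SE 0.36, edgeR adjusted p = 0.177). Col1a1, a chain of type I collagen, had 142, 504, 880 and 699 CPM (1.32, SE 0.34, edgeR adjusted p = 0.527). Mfap4, a microfibril protein, had 1.98, 12.7, 44.5 and 46.0 CPM (2.64, SE 0.40, edgeR adjusted p = 0.0664). In each of these genes WT replicate 1 was the lowest library and WT replicate 2 lay between it and the KO libraries. With 1 library left out, which assumes that the lone library varies like the others, all 3 were called in each fit (edgeR adjusted p at most 0.00210), and the log2 fold change ran from 1.13 (without WT replicate 1) to 3.49 (without WT replicate 2) for Dcn, from 0.68 to 2.49 for Col1a1 and from 1.87 to 4.47 for Mfap4, with the same libraries at the ends. Of this list, the stricter marker limits (at least 3 Rgs5 UMIs and 2 of the other markers) called Col14a1, Col1a1, Col1a2, Dcn and Postn. The looser cell filter called Dcn. DESeq2 and the fit without doublets called by Scrublet called none of Dcn, Col1a1 and Mfap4. Without these doublets their log2 fold changes were 1.58, 1.04 and 2.40. After thinning kept cells to 5000 UMIs the rule was applied anew, and 180, 165, 200 and 178 cells passed. Col1a1 was then called (log2 fold change 0.54), at 683 and 682 CPM in WT and 1135 and 825 CPM in KO.

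Few cells carried the Dcn transcripts. Cells with at least 10 Dcn UMIs numbered 0, 2, 6 and 6 and held 0, 72.7, 90.6 and 82.3% of the Dcn UMIs in pericytes. The 10 fibroblast markers summed to 1430 and 2368 CPM in WT and to 3549 and 3055 CPM in KO pericytes. These markers were Pdgfra, Dcn, Lum, Col1a1, Col1a2, Col3a1, Smoc2, Pi16, Dpt and Mfap5. Dcn, Lum, Col1a1, Col1a2, Col3a1, Dpt and Mfap5 are also on the interstitial matrix list, so the sum is not separate from this result. Pericytes with at least 5 UMIs over 6 fibroblast markers (Dcn, Lum, Smoc2, Pi16, Dpt and Mfap5) numbered 1, 5, 7 and 10. When these and the cells with as many UMIs of glial, endothelial, myogenic, macrophage, chondrocyte or tenocyte markers were left out (52 mixed cells of 616 pericytes, a choice made after the values were seen), the median of the list was -0.03 (log2 fold change), and 1 of 19 tested genes was higher at an unadjusted p under 0.05. Col1a1, which did not define the cells left out, then had a log2 fold change of -0.07, Col3a1 of -0.03 and Thbs2 of -0.06. The loss of Dcn, Lum and Mfap5 is in part built into that choice. Mfap4, Col14a1, Lox, Dpt and Fbln2 were no longer tested after it. Their log2 fold changes in all pericytes ran from 0.69 to 2.64, so the medians with and without mixed cells cover different genes.

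**Figure D5:**
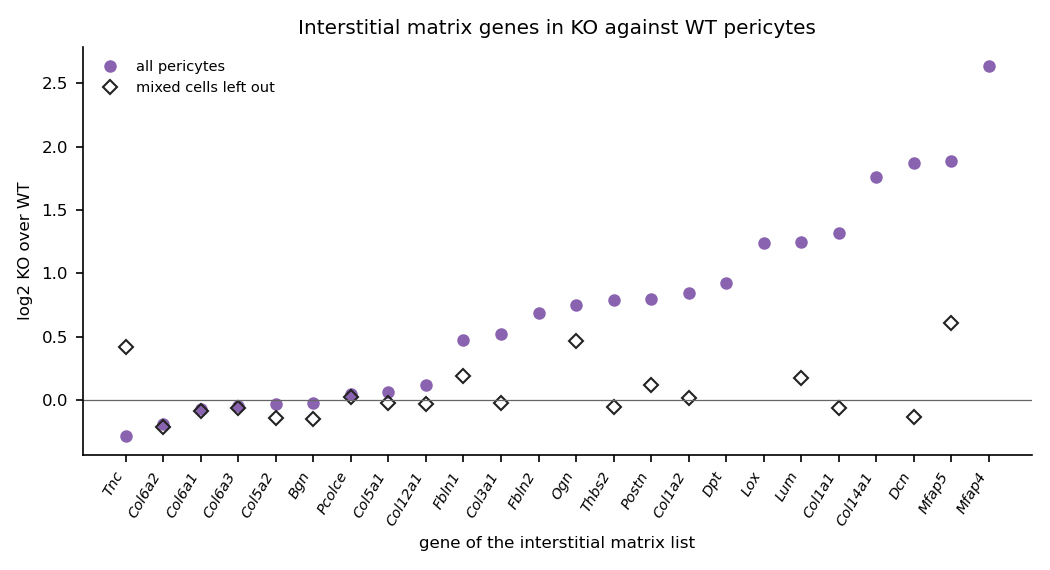
Log2 fold change of KO over WT for the 24 tested genes of the interstitial matrix list, in all pericytes (filled circles) and with mixed cells left out (open diamonds, 19 genes tested). The filled circles reach 2.64 for Mfap4, which has no diamond, and most diamonds lie near 0.

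Markers of some other cell types stood out in the pericytes of single libraries. The 9 macrophage markers summed to 140 CPM in WT replicate 2 and to 14.4 to 27.0 CPM in the other libraries, and the 6 neutrophil markers to 164 CPM in WT replicate 2 and to at most 5.26 CPM elsewhere. Mast cell markers (7 genes, Ms4a2 at 0 in all libraries) summed to 177 CPM in KO replicate 1 and to 7.89 to 55.3 CPM in the others. Mast cell and neutrophil markers did not define the mixed cells, and their part in the results was not tested.

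Beside these genes, the lowest p-values among genes of at least 30 CPM whose groups did not overlap belonged to Btg2, Peg3, Col14a1, Col1a2, Mdk, Sgip1 and Eln on the higher side, with edgeR adjusted p from 0.177 to 0.2703, above the threshold with all libraries. Btg2, an early response gene that restrains proliferation, had 218 and 235 CPM in WT and 330 and 362 CPM in KO, a log2 fold change of 0.63 (SE 0.11). That value was 0.38 after thinning to 5000 UMIs, with the cells chosen anew, and 0.44 with mixed cells left out. Without WT replicate 2, KO replicate 1 or KO replicate 2 it was called (edgeR adjusted p from 0.000382 to 0.0268), and without WT replicate 1 it was not (0.121). The KO libraries were also the higher pair in Acta2-high mural cells (341, 355, 499 and 573 CPM) and in Pdgfra cells (451, 518, 694 and 655 CPM). Peg3, an imprinted zinc finger gene, had 67.9, 85.3, 145 and 123 CPM (log2 fold change 0.82, SE 0.16). Mdk, the growth factor midkine, had 47.4, 66.6, 97.6 and 110 CPM (0.88, SE 0.17). Ptn, the related growth factor pleiotrophin, had 185, 294, 309 and 419 CPM (0.62, SE 0.18, edgeR adjusted p = 0.801), with WT replicate 2 close to KO replicate 1. In Acta2-high mural cells Ptn was lower but had the same order of groups, at 65.9, 116, 152 and 153 CPM.

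On the lower side the same selection gave B130024G19Rik, Ano1, Stk16, Edil3, Prkca, AI506816, Adcy2 and Gm28055, with edgeR adjusted p from 0.332 to 0.934. Ano1, a calcium-activated chloride channel that depolarises mural cells, had 134 and 135 CPM in WT and 97.6 and 85.5 CPM in KO, a log2 fold change of -0.54 (SE 0.14). Adcy2, an adenylate cyclase, had 165 and 153 against 121 and 109 CPM, and Prkca, protein kinase C alpha, 143 and 124 against 77.5 and 98.6 CPM. In the vascular tone list, which holds Ano1, 3 of 30 tested genes were lower at an unadjusted p under 0.05 and 0 higher, against 1.98% and 2.27% of all genes, with a median of -0.06. Adora2b, an adenosine receptor, had 19.1, 17.3, 11.5 and 10.5 CPM.

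The stress list holds immediate early and heat shock genes, which are known to respond to tissue dissociation. Of 27 tested, 9 were higher in KO and 1 was lower at an unadjusted p under 0.05 (2.27% and 1.98% of all genes), and the median was 0.20 in log2 fold change (0.08 with mixed cells left out, 3 higher). Ier2 had 356, 367, 471 and 440 CPM (log2 fold change 0.35, SE 0.10), and Junb had 559, 650, 714 and 780 CPM. Hspa1b, a heat shock gene, went the other way, with 105, 90.6, 74.7 and 58.5 CPM (-0.54, SE 0.17). No gene of the list was called.

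The remaining lists had from 0 to 3 genes in either direction at an unadjusted p under 0.05, where 2.27% of all genes were higher and 1.98% lower. Of the pericyte identity list, 1 of 27 tested genes was higher (Postn, a matrix protein also on the interstitial list) and 1 lower (the endothelin receptor Ednrb), and the median log2 fold change was -0.01. For the contractile list, 1 of 27 was higher and 0 lower (median -0.02), and the gene was Acta1. Endothelial and mural signalling genes gave 1 of 22 higher (Angpt1, the ligand of the endothelial receptor Tek) and 1 lower (median 0.02). Genes of TGF-beta and BMP signalling gave 2 of 32 higher and 2 lower (median -0.01). In the basement membrane list 3 of 33 were higher and 2 lower (median -0.01), Eln among the higher. The oxygen-linked mitochondrial list (9 tested), the hypoxia and glycolysis list (24 tested) and the cell cycle list (34 tested) together had 1 gene higher, Adm, and 0 lower, with medians of 0.08, 0.02 and 0.02. From 16 tested genes of a list on the study's topics, 3 were higher (Mdk, Ptn and Igf1) and 1 was lower, with a median of -0.06. The lower gene was Sdc4, at 20.4, 43.3, 11.5 and 17.8 CPM. Mdk, Ezh2, Cdkn1a and Cdkn1c were listed but are not named in the study's text. Since the study described Ptn, Igf1 and Sdc4 from these libraries, their direction has no independent support here. The study inferred weaker Igf1 signalling and stronger signalling from Ptn to Sdc4 among KO myogenic cells. That is an unlike measure in unlike cells. In KO pericytes Igf1 was higher and Sdc4 lower only at an unadjusted p under 0.05, and neither was called. Pdgfrb, Notch3, Ndufa4l2 and Vtn had log2 fold changes between -0.14 and 0.09.

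Col8a1, a vessel wall collagen, was called lower in KO in Acta2-high mural cells (319 and 368 against 187 and 144 CPM, log2 fold change -1.04, edgeR adjusted p = 0.000999). In pericytes it was close to absent in both genotypes, at 0.659, 9.99, 2.87 and 5.26 CPM, and it was too low to be tested there. Between pericytes and Acta2-high mural cells, 0 of 10921 genes (0%) differed in their KO effect by edgeR's interaction test, although 225 had a higher and 203 a lower effect at an unadjusted p under 0.05, with a smallest adjusted p of 0.0575. Without 1 library the same test gave from 12 (without KO replicate 1) to 49 genes (without KO replicate 2). Against all other kept cells, 72 of 19284 genes (0.373%) differed, 53 with a higher and 19 with a lower KO effect in pericytes, and with mixed cells left out 12 did. Without KO replicate 2 the number was 19.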

How the data were processed

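Leg muscle cells of 2 WT and 2 KO libraries were measured by 10x Genomics single-cell 3′ v3 sequencing. The authors deposited raw UMI counts per gene and barcode, made with Cell Ranger 7.2.0 on mm10 per the submitters' processing notes; whether intronic reads were counted was not given in the sources used here. Kept cells held 1000 to 6000 genes and 1000 to 25000 UMIs, less than 8% of them mitochondrial, and the rule was applied to raw counts. Doublets were called with Scrublet (scanpy 1.11.5; 1, 4, 3 and 2 pericytes) and removed only as an alternative. The members and the gene lists were chosen with earlier results of these data known.

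CPM is the UMIs of a gene over all UMIs of that cell group in a library. UMIs were summed per library (1392959 to 1520991 per library in pericytes), filtered with filterByExpr, scaled by TMM and compared with edgeR 4.0.16 (quasi-likelihood test, R 4.3.3), and p-values were adjusted by Benjamini-Hochberg across every tested gene, with a threshold of 0.05. Interactions had the library as a block, and shares had exact permutation tests (scipy 1.17.1). The steps were tested on simulated data. Alternatives were size factors of DESeq2 (RLE), DESeq2 1.42.0, other count filters, cell filters and marker limits, thinning to 5000 UMIs, a replicate block and each library left out. In the thinning alternative, kept cells with at least 5000 UMIs were thinned and the rule was applied to the thinned counts. Mixed cells were left out as an alternative chosen after seeing the data. Replicate numbers were not treated as pairs in the main test (correlation of deviations 0.0689 over 9932 genes). With 2 libraries per genotype this correlation cannot exclude a pairing of the libraries.

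Named genes were the rule genes, genes called, the 8 genes per direction of lowest p with at least 30 CPM and no overlap, the 25 genes highest over other cells, the 15 per direction most different from Acta2-high mural cells, the most abundant members and those of low p in each list, preset paralogs and sex-linked genes, and the 5 strongest interactions per direction. Some genes are not reported here, the gene called among them. Of the others the text gives a selection, and Heyl, Pdgfb, Myl9, Mylk, Mki67 and the cell type markers stand outside this rule. Promoter windows came from RefSeq (GRCm38.p6).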

Additional observations from a re-analysis of the deposited data

Results flagged for a closer look

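The effect of SYISL loss differed between pericytes and all other kept cells in 72 genes by edgeR's interaction test. Among those of lowest p with a higher effect in pericytes were the matrix genes Col1a1 (log2 difference 1.56), Dcn (1.91), Col1a2 (0.97) and Mfap4 (2.78). Col1a1, Dcn and Col1a2 are themselves part of the fibroblast marker sum given above. With mixed cells left out none of these 4 was called, at 0.04, -0.11, 0.12 and 0.72. In the opposite direction stood genes of other cell types that were low in pericytes. Hbb-bs, a globin of red cells, differed by -3.48, with 12.5, 17.3, 5.03 and 3.94 CPM in pericytes, and was still called without mixed cells (-3.68) but not without KO replicate 2 (-2.20). In all other kept cells the 6 erythroid markers, Hbb-bs among them, summed to 137, 71.5, 143 and 496 CPM, highest in KO replicate 2. Col2a1, a cartilage collagen, differed by -3.34, with 93.3 CPM in WT replicate 2 and at most 6.57 CPM in the other libraries. Mrc1, a macrophage receptor, differed by -4.20, S100a4 by -3.59 and Cd86, a gene of antigen-presenting cells, by -11.9, all 3 highest in WT replicate 2. The value of Cd86 rests on KO libraries at 0 UMIs and is no bound. The macrophage marker sum was also highest in WT replicate 2. Without WT replicate 2, Mrc1 was at -1.08 and S100a4 at -1.22, and with mixed cells left out, which include cells with macrophage markers, they were at -0.55 and -2.05. Mrc1, S100a4, Cd86 and Col2a1 lost their calls in both fits and without KO replicate 2, Mrc1 (-1.08) and Cd86 also without Scrublet doublets, and Mrc1, Cd86 and Col2a1 also with 6 more markers required at 0. Groups of 2 libraries were not examined for outlying libraries.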

How the results depend on the processing

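The count of 1 gene called in KO pericytes became 6 with the replicate block (Btg2, Col14a1, Mfap4, Postn and Ptn among them), 8 with the stricter marker limits, 2 with 6 more markers required at 0, 2 after thinning to 5000 UMIs, and 49 to 91 without 1 library. DESeq2 called 1 gene. The gene called was lost with the looser cell filter and with 1 Rgs5 UMI accepted, where 1 other gene was called in each. The 0 genes of the interaction with Acta2-high mural cells became 36 with no filter on low counts, 1 without Scrublet doublets, 1 without mixed cells and 12 to 49 without 1 library. The 72 genes of the interaction with all other kept cells became 31 with more markers at 0, 12 without mixed cells, and 19 to 77 without 1 library. The share difference was -0.197 to -0.0552 percentage points without 1 library and 2.03 on the mural denominator. Signs reversed without mixed cells for Dcn (-0.13), Eln (-0.17), Col1a1 (-0.066), Col3a1 (-0.026) and the Dcn interaction (-0.11), after thinning for Eln (-0.015), and without WT replicate 2 for the Col2a1 interaction (-11.5 to 0.38 over the 4 fits without 1 library). Of 440 log2 fold changes of 26 named genes under alternatives, 365 kept direction and side of the threshold, 68 newly passed it, 2 lost it and 5 reversed; of 90 interaction values, 68 kept both, 20 lost the call and 2 reversed. The cause was not tested. With 2 libraries per genotype and 137 to 165 pericytes in each, few UMIs stood behind low genes, which limits what could be called.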
